A study of Mus musculus with 14 samples.

Results

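Protein kinases of intracellular signalling were examined through H3K4me3, a histone modification that sits chiefly on promoters in use, in the cerebral cortex of mice given nicotine during development. Their genes were taken by symbol: those starting with Mapk, Map2k, Map3k, Map4k, Camk, Prka, Prkc, Prkd or Prkg, Stk followed by a digit, and Cdk followed only by digits. In all, 108 of the 10543 genes with a measured region matched, through 121 of 14881 regions, and the region of highest mean stood for a gene. A further 2 matching genes were left out by the rule. The rule used no measured difference, but it was chosen with earlier results of these data known. Symbols are not functions, and the set also holds genes that encode no kinase, among them regulatory subunits of PKA and AMPK, the interacting proteins Mapk1ip1l and Stk11ip, the JNK scaffolds Mapk8ip1, Mapk8ip2 and Mapk8ip3, the adaptor Mapksp1 (now Lamtor3), the CaMKII inhibitor Camk2n1, the pseudokinase gene Camkv, Prkcsh (the beta subunit of glucosidase II) and Prkcdbp (now Cavin3, a caveolar coat protein). In the tables Stk30 stands for Mok.

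ChIP-seq was done on 14 libraries from C57BL/6J mice aged 3 months, with nicotine or, as control, saccharin in the drinking solution. There were 4 nicotine and 4 saccharin libraries after exposure in the postnatal period only, and 3 of each after exposure before and after birth. Every sample carries 1 treatment text, which has the solutions reaching dams from conception and ending when the offspring were 21 days old, so the postnatal-only course is known from the group names alone. Postnatal libraries 1 and 2, and 3 and 4, of each group differed with a variance at most 1.08 times that of counting noise and were averaged. For this the deposited values were taken as counts, though they are adjusted and not whole, so the ratio is approximate. Averaging left n = 2 against 2 there, with n = 3 against 3 for the longer exposure. Nothing in the labels states whether replicates came from different animals, so p-values measure the spread between these samples, which may be technical.

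Values are a signal, the submitters' adjusted read counts per region, with medians per library of 79.8 to 84.2 in the postnatal table and 52.8 to 56.9 in the other. The original depth is unknown, and the tables were adjusted separately, so levels are compared only within a table. The postnatal samples also differed in the share of all signal held by 15 regions of very high signal (mean over 3000). It was 25.2% in nicotine pair 1-2 and 18.7% in saccharin pair 3-4, against 10.04% in nicotine pair 3-4 and 8.47% in saccharin pair 1-2. These are called samples of high and low share below. In the longer exposure the share was 19.1% to 49.7% with nicotine and 28.8% to 39.9% with saccharin. Regions with values were found for 8 of 12 neuronal and 8 of 10 cortical neuron markers. The same held for 8 of 10 oligodendrocyte, 5 of 8 endothelial and 2 of 8 astrocyte markers. For microglia it was 1 of 10 markers, for blood 1 of 8 and for liver 0 of 8.

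In a MAP kinase cascade, MAP4 kinases act on MAP3 kinases, which act on MAP2 kinases, and these phosphorylate the MAP kinases ERK, JNK and p38. Calcium acts through calmodulin on the CaM kinases, and cyclic AMP releases the catalytic subunits of PKA from its regulatory subunits. PKC isoforms other than the atypical ones answer to diacylglycerol, and classical isoforms also to calcium. CDKs need a cyclin or a related activator. In cortical neurons ERK, CaM kinases and PKA are known for carrying synaptic activity to the nucleus.

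Most kinase genes carried a stronger mark than the typical gene. Per kb of region, the median over the 108 genes in postnatal saccharin samples was 78.3, against 61.1 over all 10543 genes. 68 of them lay above the median of all genes, 21 in the top 10% and 8 in the bottom 10%. Their regions were also wider, with a median of 1966.5 bp against 1657 bp, and width and signal went together across the members (Spearman rho = 0.659, n = 108 genes of the same libraries, a description). The order of the members per kb was much the same in the other table (rho = 0.971 between the means of the saccharin groups).

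**Figure D1:**
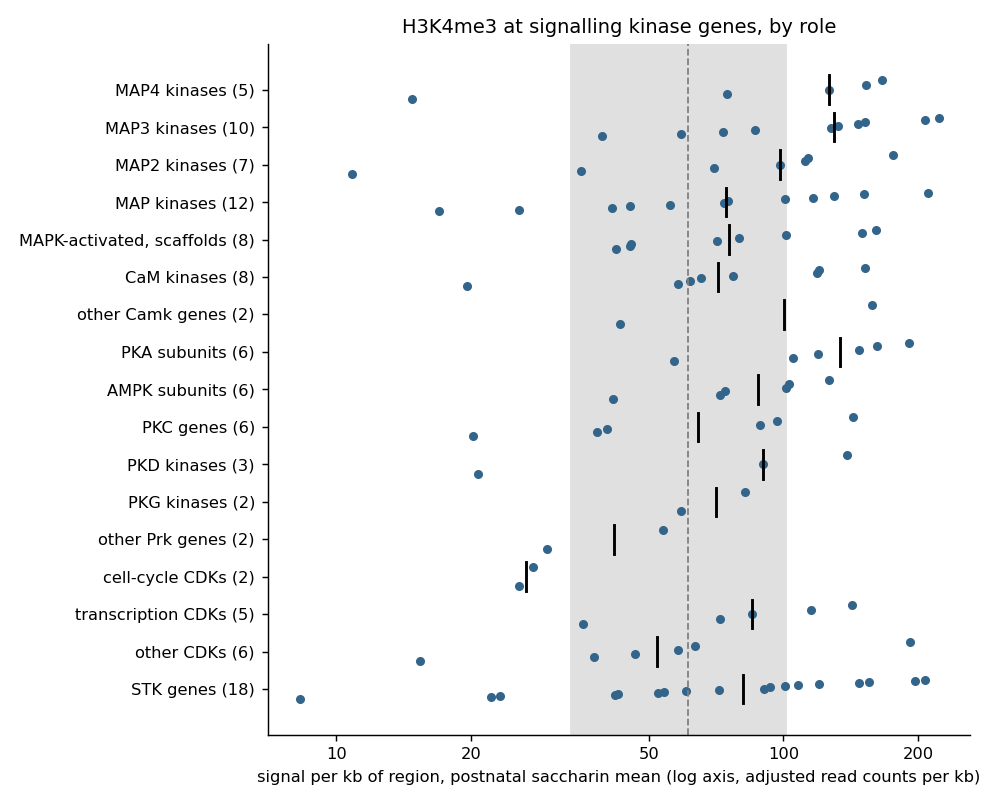
Signal per kb of region (log axis) in postnatal saccharin samples, as the mean of 2 averaged pairs. Each point is a gene, rows are roles with the number of genes, black lines are role medians, the dashed line is the median of all genes (61.1) and the grey band its quartiles; PKA subunits have the highest role median (133) and the cell-cycle CDKs the lowest (26.5).

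The first tiers of the MAP kinase cascade were among the most strongly marked. Map3k3, which acts towards ERK5, held 222 per kb, with a signal of 392 and 378 in the saccharin pairs. Map3k4, a MAP3 kinase of the stress pathways, held 207 per kb. Mapk14, the main p38 kinase, was the highest MAP kinase at 211 per kb, with 473 and 407 in the saccharin pairs. In these samples the region at Mapk3 (ERK1) held 41.4 per kb. The 3 JNK genes differed too: Mapk9 held 152 per kb, Mapk8 116 and Mapk10, the neuronal JNK, 25.6. The range within a tier was wide, and each tier above the MAP3 or below it held a weakly marked gene: Map4k1, known from blood cells, at 14.8 per kb, Map2k6 at 10.9 and Mapk13 at 16.9.

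Among calcium and cyclic AMP kinases, Prkaca, the main PKA catalytic subunit, held 191 per kb, from a signal of 464 ± 18.6 (SD, n = 2) in postnatal saccharin samples. The second catalytic subunit, Prkacb, held 162 per kb, and the regulatory subunits ranged from 56.9 (Prkar1b) to 147 (Prkar2b). Of the CaM kinases, Camk2b held 152 per kb, Camk2g 120 and Camk2d 119, so the last 2 lay close together, while Camk4, a nuclear CaM kinase, held 65.5 and Camk1g 19.5. The inhibitor gene Camk2n1 held 158 per kb. Among PKC genes, Prkci, an atypical isoform, held 143 per kb, the classical isoforms Prkcb and Prkca 96.9 and 88.6, and Prkcz, also atypical, 38.3.

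The CDK genes ranged widely. Cdk2 and Cdk4, which drive the cell cycle, held 25.6 and 27.5 per kb, below the lower quartile of all genes (33.5). Of the CDKs acting on RNA polymerase II, Cdk19, a Mediator kinase, held 142 per kb and Cdk9 115, against 35.6 for Cdk7. The PCTAIRE kinase gene Cdk17 held 192 per kb and its relatives Cdk16 and Cdk18 63.3 and 58.1. Among numbered STK genes, Stk38l, an NDR kinase related to Hippo signalling, and Stk39, which regulates ion cotransporters, held 207 and 197 per kb, while Stk32b held the least of all members at 8.27.

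11 members had more than 1 region. At Prkg1, the cGMP-dependent kinase I gene, 3 regions held 127 ± 2.01, 43.7 ± 10.8 and 34.9 ± 7.92 in postnatal saccharin samples (SD, n = 2). Mapk8ip1, also with 3, had 115 ± 9.06, 21.0 ± 5.01 and 117 ± 19.1. At Prkag2, an AMPK gamma subunit, the tables tie the regions to different transcripts, with 207 ± 33.0 and 139 ± 11.6. The regions of Map2k6 overlap, so reads there may count in both. 17 of the 88 members found in RefSeq's promoter table have another gene starting within 1000 bp on the opposite strand, such as Stk16 with Glb1l (74 bp) and Prkar1b with Dnaaf5 (234 bp), and the signal there cannot be divided between both genes.

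Members differed in promoter sequence. RefSeq (GRCm38.p6) gives 1 promoter window, 250 bases before to 50 after the start, for 65 members. Their median ratio of observed to expected CpG was 0.84, against 0.78 over 6658 genes with a region and 0.37 over 22862 genes with such a window. Across the members the ratio and the signal per kb went together weakly (Spearman rho = 0.337, n = 65), as across genes with a region (0.389, n = 6658). Camk1g had the lowest ratio, with 1 CpG (0.067), Cdk18 had 0.23 with 6, and Camk2b had the highest, 1.28 with 51. These 3 are shown because they span that range and because Camk1g and Cdk18 recur in the comparisons, and Stk38l because it holds the only full cyclic AMP response element (CRE). The 250 bases before the start follow, 5′ to 3′ on the gene's strand. Capitals mark each CG in the first 3, and the CRE in Stk38l. On GRCm38.p6 they lie at chr1:193370283-193370532 (minus strand), chr1:132139686-132139935 (minus), chr11:6065749-6065998 (minus) and chr6:146724680-146724929 (plus).
Camk1g: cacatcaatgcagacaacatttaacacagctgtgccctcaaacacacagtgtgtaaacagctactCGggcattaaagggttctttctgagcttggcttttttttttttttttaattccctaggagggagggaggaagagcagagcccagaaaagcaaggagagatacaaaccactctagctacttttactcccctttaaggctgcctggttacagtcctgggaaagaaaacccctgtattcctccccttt
Cdk18: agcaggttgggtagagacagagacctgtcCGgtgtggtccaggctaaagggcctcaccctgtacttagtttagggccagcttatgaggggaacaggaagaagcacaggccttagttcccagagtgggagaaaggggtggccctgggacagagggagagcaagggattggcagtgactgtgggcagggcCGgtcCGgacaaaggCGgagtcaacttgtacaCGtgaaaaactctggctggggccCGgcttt
Camk2b: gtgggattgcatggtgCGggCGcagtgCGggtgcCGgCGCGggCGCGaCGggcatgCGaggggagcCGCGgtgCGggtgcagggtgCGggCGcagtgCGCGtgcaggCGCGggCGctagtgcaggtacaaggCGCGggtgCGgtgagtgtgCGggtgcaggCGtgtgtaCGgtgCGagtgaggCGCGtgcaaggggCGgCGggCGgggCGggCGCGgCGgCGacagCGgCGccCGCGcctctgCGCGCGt
Stk38l: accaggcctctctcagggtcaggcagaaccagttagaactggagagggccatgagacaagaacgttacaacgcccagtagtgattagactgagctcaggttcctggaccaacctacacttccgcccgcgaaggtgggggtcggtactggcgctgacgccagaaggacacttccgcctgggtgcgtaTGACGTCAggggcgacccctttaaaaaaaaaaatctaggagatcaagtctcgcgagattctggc
Camk1g shows 1 CG in its 250 bases and Camk2b 44. The signal per kb at these genes was 19.5 for Camk1g, 58.1 for Cdk18, 152 for Camk2b and 207 for Stk38l.

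**Figure D2:**
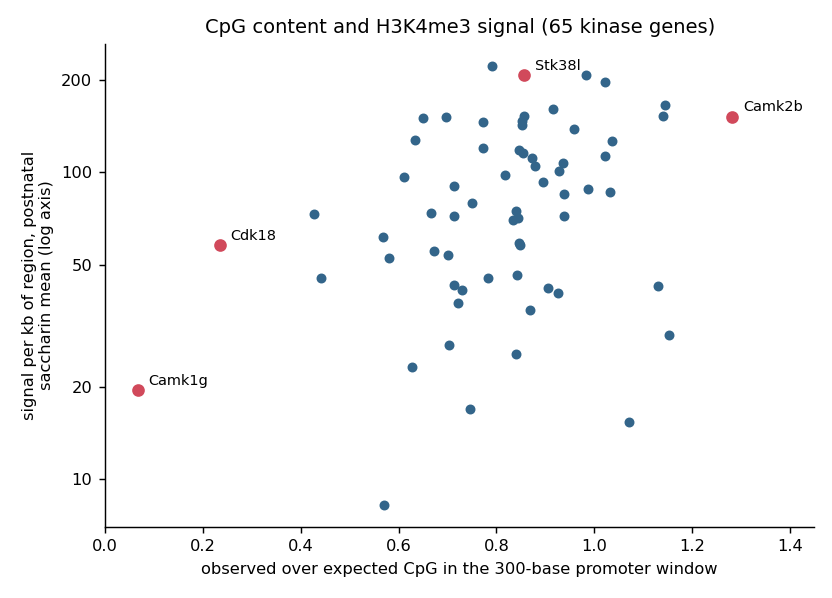
Ratio of observed to expected CpG in the 300-base promoter window against signal per kb (log axis, postnatal saccharin mean) for the 65 members with 1 window. Camk1g lies at the lower left (0.067 and 19.5) and Camk2b at the right (1.28 and 152), with members of high CpG ratio spread over nearly the whole range of signal.

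Motifs were searched on both strands of the 300-base windows. The CRE, TGACGTCA, was in 1 of 65 members (1.54%), against 3.56% of genes with a region and 1.85% of all genes with a window. Its core TGACG, which the full site contains, was in 36.9% of members, 32.9% of genes with a region and 20.6% of all. The GC box GGGCGG was in 78.5%, 69.3% and 35.2%, and CCAAT in 32.3%, 39.1% and 38.2%. The TATA motif TATAAA was in 0 of 65 members, 6.97% of genes with a region and 14.8% of all. The ETS motif CCGGAAGT was in 6 members (9.23%), 7.99% and 3.95%, and the NRF1 motif GCGCATGC in 6 (9.23%), 5.92% and 2.77%. A match describes letters in a window, not a bound site.

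**Figure D3:**
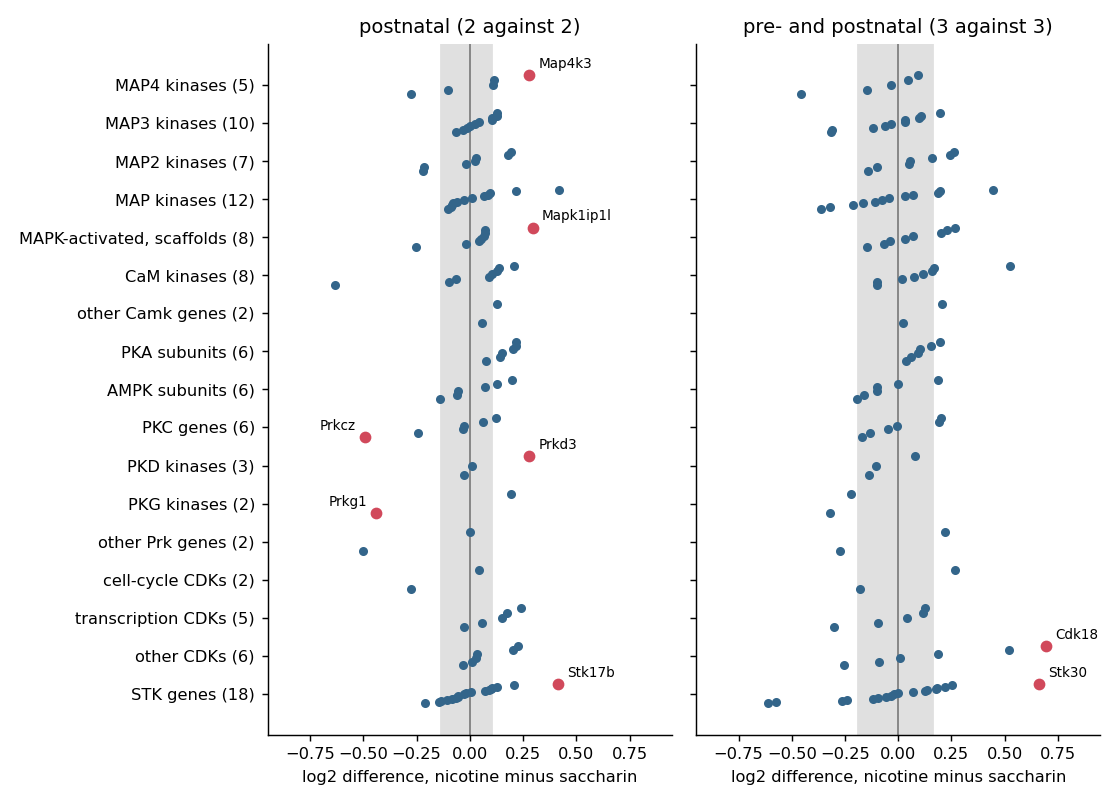
Log2 difference, nicotine minus saccharin, of each member after postnatal (left) and pre- and postnatal exposure (right), in rows by role with the number of genes. The grey band spans the quartiles over all regions and red points have an unadjusted p under 0.05; none has an adjusted p under 0.05.

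The postnatal comparison asked whether nicotine after birth leaves a trace on H3K4me3 in the adult cortex. No member differed past the threshold. 0 of 108 members had an adjusted p under 0.05 in limma (all regions: 0%), with 1.00 as the smallest. Below an unadjusted p of 0.05, Stk17b, Map4k3, Prkd3 and Mapk1ip1l were higher with nicotine, 3.7% of members against 0.961% of regions. Prkg1 and Prkcz were lower, 1.85% against 0.928%. The count of these 6 was not stable: it was 2 without the variance trend, 3 with the replicate block, 13 with the share class as a term, 16 with the 8 libraries taken separately, and 4 to 10 with 1 pair left out, the 10 without saccharin pair 1-2. In bulk tissue, fewer cells that carry the mark and less mark per cell cannot be told apart.

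Stk17b, a kinase of the death-associated family (chromosome 1, 53841185 to 53842472, mm9), had a signal of 205 and 207 in the nicotine pairs and 140 and 169 in the saccharin pairs. Both nicotine samples lay above both saccharin samples. The log2 difference was 0.42 ± 0.12 (SE), on the scale of log2(value + 1) used for every log2 difference here, and 0.28 within the samples of high share and 0.55 within those of low share. In the longer exposure the values overlapped, 112, 112 and 86.3 against 84.4, 109 and 123.

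Map4k3, a kinase of amino acid and stress signalling (chromosome 17, 81126378 to 81128459), had 419 in both nicotine pairs and 349 and 340 with saccharin. Its log2 difference was 0.28 ± 0.10, with 0.30 and 0.26 within the samples of high and low share. Prkd3, a protein kinase D, stood at 194 and 193 against 166 and 153 (0.28 ± 0.12). For both genes the groups did not overlap, and the nicotine pairs were nearly equal. Mapk1ip1l, which encodes no kinase, had 146 and 171 against 140 and 118 (0.30 ± 0.14).

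On the lower side, the main region of Prkg1 (chromosome 19, 31737673 to 31739829) had 83.2 and 105 in the nicotine pairs and 128 and 126 in the saccharin pairs. The groups did not overlap, and the log2 difference was -0.44 ± 0.15, with -0.59 and -0.29 within the samples of high and low share. The other 2 regions of Prkg1 had log2 differences of -0.23 ± 0.28 and -0.05 ± 0.31. Prkcz, the atypical PKC zeta (chromosome 4, 154718474 to 154720307), had 56.7 and 43.4 against 68.3 and 72.2, a log2 difference of -0.49 ± 0.22. After the longer exposure Prkcz overlapped, with 42.6, 58.1 and 53.0 against 68.5, 38.2 and 32.5. All of these adjusted p-values were 1.00.

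**Figure D4:**
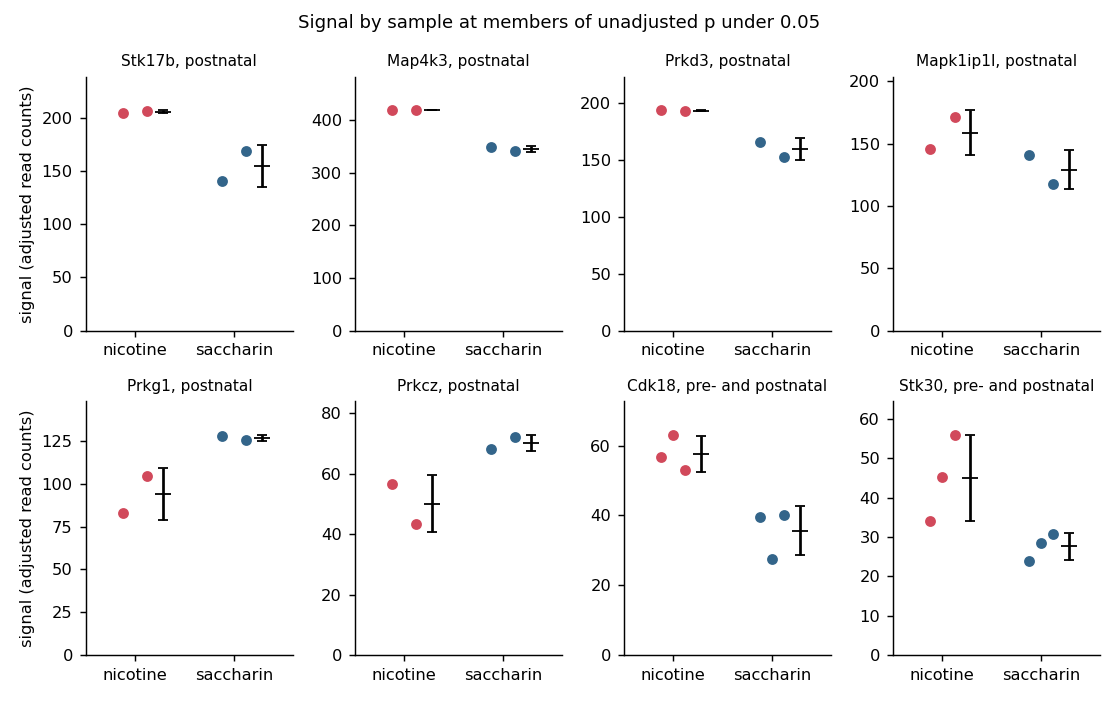
Signal by sample for the 6 postnatal and 2 pre- and postnatal members with an unadjusted p under 0.05 (red nicotine, blue saccharin, black bars mean ± SD, n = 2 per postnatal group and n = 3 per pre- and postnatal group). The panels were chosen by p; in each of them the groups do not overlap, and none has an adjusted p under 0.05.

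Across all 108 genes, 65 (60.2%) lay above 0, against 49.1% of regions. The median log2 difference was 0.04, against -0.0036 over all regions, and 83 members lay within 0.2 of 0 in either direction. The median 95% interval of a member, not adjusted for the number of regions, reached 0.27 to either side, or 1.20-fold. Smaller differences were not resolved, and none of the larger ones passed the adjustment over all regions. Groups did not overlap, with nicotine higher, at 32 members (29.6%, against 15% of regions) and, with nicotine lower, at 12 (11.1%, against 14%). Regions of like strength lean the same way in part: among the 5037 genes whose signal lay between the members' quartiles, 53.4% were above 0 and 17.8% did not overlap with nicotine higher, against 55.6% and 29.6% of the 54 members there. The lean depends on the scaling, with 57.4% of members above 0 after quantile normalization and 72.2% after rescaling to the median region, which also moves all regions to 59.7%.

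By role, the PKA subunits had the highest median, 0.18 as deposited; after quantile and loess normalization it was 0.09, behind the PCTAIRE and remaining CDKs at 0.11 and 0.10. All 6 PKA genes had a log2 difference above 0, and none passed the threshold. Prkaca had 537 and 533 in the nicotine pairs and 477 and 451 in the saccharin pairs, and the groups did not overlap (0.20 ± 0.11). The regulatory subunits Prkar1a (464 and 388 against 378 and 386), Prkar1b (110 and 99.2 against 90.6 and 88.8) and Prkar2b (316 and 333 against 293 and 296) did not overlap either. Prkar2a overlapped, with 228 and 276 against 239 and 195, and so did Prkacb, with 313 and 394 against 359 and 309. The 6 remained above 0 under quantile, loess and median scaling, while Prkacb turned to -0.09 without nicotine pair 3-4 and to -0.03 without saccharin pair 3-4.

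**Figure D5:**
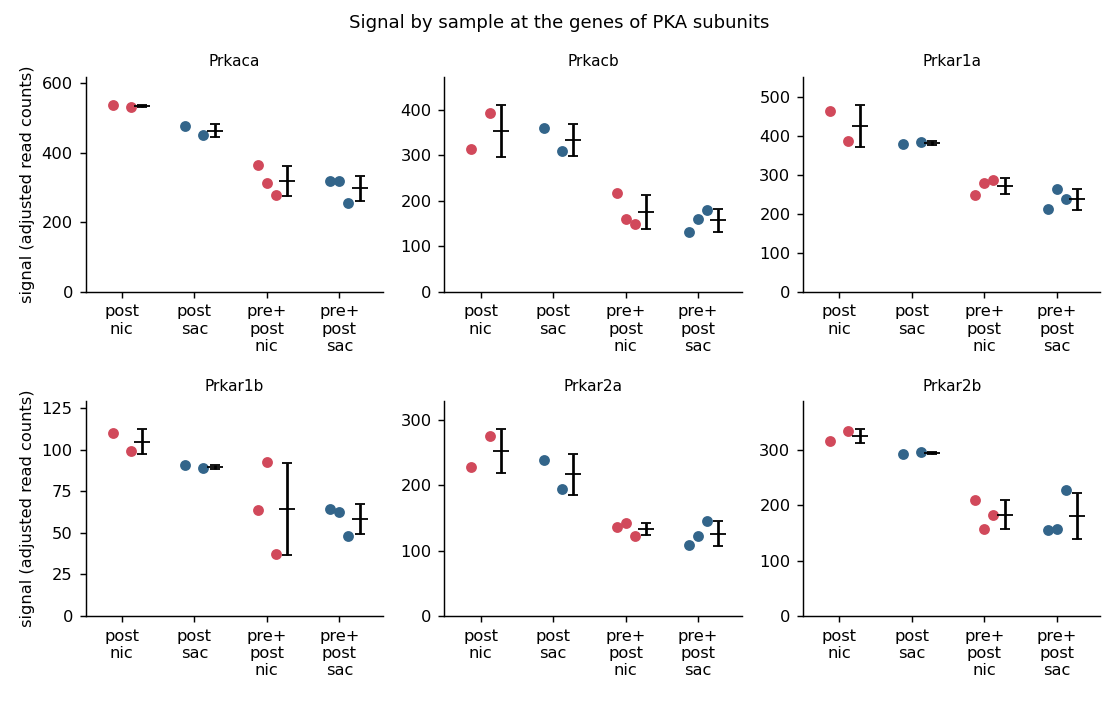
Signal by sample at the 6 PKA subunit genes in the 4 groups (post, postnatal; pre+post, pre- and postnatal; nic, nicotine; sac, saccharin; black bars mean ± SD, n = 2 per postnatal group and n = 3 per pre- and postnatal group). Heights are comparable only within an exposure, since the tables were adjusted separately; as deposited, the nicotine mean is the higher one at each gene in both exposures (at 5 of 6 in the longer exposure after quantile or loess normalization), with overlap in every pre- and postnatal panel.

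The CaM kinases had 5 of 8 above 0 (median 0.10), but 3 of 8 without nicotine pair 3-4 (median -0.03) or without saccharin pair 3-4 (median -0.01). Camk2g, a CaMKII subunit, had 381 and 327 against 323 and 289, a log2 difference of 0.21 ± 0.11, which was 0.40 within the samples of high share and 0.02 within those of low share. Camk1g was the exception in size, with 25.7 and 12.2 against 26.1 and 30.4 (-0.63 ± 0.40). Camk2b had 0.13 ± 0.11 and Camk4 -0.10 ± 0.13. PKC genes had 2 of 6 above 0 (median -0.03, and 0.02 after median rescaling), with Prkca and Prkcb each at -0.03 ± 0.12. With 1 pair left out, 1 to 4 of the 6 PKC genes lay above 0.

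In the MAP kinase cascade, 6 of 12 MAP kinases, 4 of 7 MAP2 kinases, 6 of 10 MAP3 kinases and 3 of 5 MAP4 kinases lay above 0, and median rescaling made these 7, 5, 9 and 3. With 1 pair left out the counts ran from 6 to 9, 2 to 5 and 6 to 9, and stayed at 3 for the MAP4 kinases. Mapk8 (JNK1) had 274 and 270 against 220 and 250, with no overlap (0.21 ± 0.11). Map2k3, an activator of p38, had 139 and 138 against 151 and 172, and Map2k5, the activator of ERK5, 149 and 142 against 159 and 182. Both did not overlap, on the lower side, with log2 differences of -0.22 ± 0.13. Mapk3 overlapped, with -0.09 ± 0.24, as did Map2k1 (MEK1) with -0.02 ± 0.11 and Mapk14 with 0.07 ± 0.11.

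Of the CDKs, 4 of 5 acting on transcription and 5 of 6 in the PCTAIRE and remaining group lay above 0, with medians of 0.15 and 0.03. Without nicotine pair 1-2 these became 2 of 5 and 3 of 6 (medians -0.0017 and 0.04), and without saccharin pair 1-2 the second group had 3 of 6 (median -0.01). Cdk17 had 475 and 453 against 425 and 383 (0.20 ± 0.11), with no overlap. Cdk4 had 38.6 and 44.1 against 44.6 and 56.3 (-0.28 ± 0.25), which was -0.53 within the samples of high share and -0.02 within those of low share. The 18 STK genes were split, with 8 above 0 (8 to 12 with 1 pair left out). Mapksp1 overlapped at 62.2 and 78.2 against 73.5 and 94.6 (-0.25 ± 0.20), with -0.60 and 0.09 within the samples of high and low share.

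3 members followed the share class of the samples. With share class and treatment in 1 fit, whose variance limma took wholly from the trend over all regions, Mapk10, Prkcsh and Cdk8 were called higher in the samples of high share (2.78% of members, against 4.8% of regions), and 0 were called lower (against 1.12%). Mapk10 had 79.1 and 88.7 in the samples of high share and 54.0 and 54.2 in those of low share, a log2 difference of 0.62 ± 0.17 (limma adjusted p = 0.00869). Prkcsh had 45.1 and 50.5 against 19.3 and 35.5 (0.84 ± 0.23, adjusted p = 0.0107), and Cdk8, a Mediator kinase, 173 and 125 against 111 and 110 (0.40 ± 0.12, adjusted p = 0.0282). After quantile or loess normalization Mapk10 and Cdk8 were still called and Prkcsh was not (adjusted p = 0.105 and 0.0930). Under treatment, Prkcsh differed by -0.50 ± 0.36 with overlapping groups, and by 0.09 without nicotine pair 3-4. 68 members (63.0%) had 1 direction of the nicotine difference in both share classes, as had 53.4% of regions.

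Exposure that began before birth was compared in the same way. Again no member differed past the threshold: 0 of 108 members had an adjusted p under 0.05 (all regions: 0%), with 0.987 as the smallest. At an unadjusted p under 0.05, Cdk18 and Stk30 were higher, 1.85% of members against 1.72% of regions, and 0 were lower, against 1.87%. These shares are near the background. The count of 2 was 1 with the replicate block or without saccharin replicate 1, and 5 without nicotine replicate 1. The median unadjusted 95% interval of a member was wider than after postnatal exposure, reaching 0.40 to either side, or 1.32-fold.

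Cdk18, a PCTAIRE kinase (chromosome 1, 134035473 to 134036693), had 56.9, 63.2 and 53.0 with nicotine and 39.5, 27.5 and 40.0 with saccharin. Every nicotine sample lay above every saccharin sample, and the log2 difference was 0.69 ± 0.26 (adjusted p = 0.987). After postnatal exposure the same region overlapped, with 90.5 and 56.3 against 72.9 and 68.7 (0.01 ± 0.22). Its promoter is 1 of the 2 poorest in CpG shown above, and a link of CpG content with the nicotine differences was not tested. Stk30, or Mok, a kinase related to the MAP kinases (chromosome 12, 112078332 to 112079467), had 34.0, 45.3 and 56.0 against 24.0, 28.4 and 30.7, without overlap (0.66 ± 0.30).

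Camk1g, the other CpG-poor promoter, had 27.4, 41.2 and 36.3 with nicotine and 22.9, 27.1 and 21.3 with saccharin, again without overlap (0.53 ± 0.32). Its direction was the opposite of that after postnatal exposure. Mapk10 had 71.8, 108 and 151 against 63.5, 103 and 69.9, which overlapped (0.45 ± 0.24). The Mapk10 region also followed the share in the postnatal samples. In the longer exposure the 3 nicotine libraries held shares of 19.1%, 49.7% and 41.9% in that order. The 3 saccharin libraries held 39.9%, 28.8% and 33.1%, the reverse of the order of their Mapk10 signal. With the share as a covariate the log2 difference was 0.40 ± 0.22 (limma adjusted p = 0.975), against 0.45 ± 0.24 without it. The share as a cause of this difference was not tested. Cdk10 overlapped, with 60.6, 98.4 and 55.9 against 33.4, 63.4 and 52.3 (0.52 ± 0.27).

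On the lower side, Mapk4, an atypical MAP kinase, had 100.4, 112 and 97.1 with nicotine and 129, 134 and 125 with saccharin (-0.32 ± 0.17). Prkg2, the cGMP-dependent kinase II, had 96.7, 94.0 and 86.4 against 135, 110 and 103 (-0.32 ± 0.18), and Map3k6 58.8, 51.7 and 57.9 against 65.6, 71.8 and 72.2 (-0.31 ± 0.21). At these genes no nicotine sample reached the saccharin range. Map3k14, the NF-kappaB-inducing kinase, overlapped with 60.7, 45.7 and 58.9 against 72.8, 56.4 and 77.3 (-0.31 ± 0.23). Cdk8 also overlapped, at 78.6, 110 and 72.6 against 151, 79.8 and 98.1. Cdk16, a PCTAIRE kinase on the X chromosome, had 77.7, 77.0 and 67.7 against 97.7, 87.8 and 80.5, without overlap (-0.25 ± 0.19). Stk38, the NDR1 kinase, overlapped, with 89.2, 57.1 and 86.4 against 81.2, 89.4 and 101 (-0.24 ± 0.21, and -0.36 to -0.04 with 1 library left out). Stk33 overlapped on low signal, with 13.3, 19.1 and 7.82 against 34.2, 8.36 and 24.5 (-0.57 ± 0.51, and -1.13 to -0.18 with 1 library left out).

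Over all members, 58 (53.7%) lay above 0, against 50.5% of regions. The median was 0.03 against 0.0027, and 78 members lay within 0.2 of 0. Among the 4717 genes whose signal lay between the members' quartiles, 54.4% were above 0, against 51.9% of the 54 members there. Of these genes and members, 4.52% and 3.70% did not overlap with nicotine higher, and 2.93% and 7.41% with nicotine lower. After quantile and loess normalization 52 and 51 members lay above 0, with medians of -0.012 and -0.0053. Groups did not overlap with nicotine higher at 7 members (6.48%, against 4.49% of regions) and with nicotine lower at 6 (5.56%, against 4.46%). The 7 higher were Cdk18, Stk30, Camk1g, Map2k2 (MEK2), Camk2n1, Cdk17 and Camk4. Map2k2 had 148, 128 and 157 against 125, 122 and 111 (0.26 ± 0.16). Camk2n1 had 297, 318 and 297 against 241, 272 and 279 (0.20 ± 0.14). Stk39 overlapped, with 310.0, 301 and 232 against 246, 239 and 217 (0.25 ± 0.15). The 6 lower were Mapk4, Prkg2, Map3k6, Cdk16, Stk4 and Prkcq.

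The PKA subunits were again all on the higher side, 6 of 6, with a median of 0.10 and overlapping groups at each. Prkaca had 365, 313 and 280 with nicotine and 318, 319 and 255 with saccharin (0.10 ± 0.15). Prkar1a had 249, 278 and 287 against 211, 264 and 237 (0.20 ± 0.14). After quantile or loess normalization 5 of 6 lay above 0, and 4 to 6 did when single libraries were left out. CaM kinases had 6 of 8 above 0 (median 0.10), PKC genes 2 of 6 (median -0.03, and 0.03 after quantile or loess normalization), PKG kinases 0 of 2 and AMPK subunits 2 of 6 (median -0.10). With single libraries left out these counts were 5 to 6, 1 to 5, 0 and 1 to 3. The MAP kinases had 5 of 12 above 0 (5 to 7 with 1 library left out), with Mapk3 at -0.21 ± 0.28 and Mapk14 at 0.19 ± 0.16.

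Set side by side, the exposures, which have separate controls, placed 34 members above 0 in both (31.5%, against 24.9% of regions), 19 below 0 in both (17.6%, against 25.3%) and 55 on opposite sides. 8 members did not overlap in either comparison (7.41%, against 2.84% of regions). 3 of the 8 kept 1 direction (2.78% of members, against 1.61% of regions): Map2k2 and Cdk17 higher, Prkcq, the PKC theta gene, lower. Map2k2 was nearly unchanged after postnatal exposure, with 205.7 and 205.22 against 205.07 and 198.22 (0.03 ± 0.11). Cdk17 had log2 differences of 0.20 and 0.19, and in the longer exposure 264, 243 and 238 with nicotine against 218, 232 and 204. Prkcq had 56.1 and 43.4 against 56.6 and 60.7 after postnatal exposure, where the gap between the groups was small, and 31.3, 31.9 and 27.5 against 34.3, 32.6 and 35.5 after longer exposure. Prkg2, Cdk16 and Map3k6 were higher after postnatal and lower after longer exposure, and Camk1g and Camk4 lower, then higher. The postnatal log2 differences of Map3k6 (0.03 ± 0.14) and Camk4 (-0.10 ± 0.13) were smaller than their SE. At Camk1g, a region of low signal, the gap between the postnatal groups was small (25.7 against 26.1). Its postnatal log2 difference was -0.23 within the samples of high share and -1.04 within those of low share. With 1 pair left out it ran from -1.14 to -0.13. In the test of the difference between exposures, 0 members had an adjusted p under 0.05 (all regions: 0%), with 1.00 as the smallest. Unadjusted, 6 had a p under 0.05 (5.56%, against 3.65% of regions): Prkg2, Camk1g, Cdk16, Stk30, Cdk18 and Mapk4. The difference at Camk1g, longer minus postnatal, was 1.16 ± 0.51, and that at Prkg2 -0.51 ± 0.22.

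Partners of these kinases, taken as lists, held no called gene in either exposure. Of 19 genes upstream of ERK around RAS and RAF, 14 lay above 0 after each exposure, with medians of 0.11 and 0.10, and 12 to 16 did with samples left out or another scaling. Among them Rap1a, a small GTPase, had 225 ± 11.4 against 193 ± 0.836 (SD, n = 2) after postnatal and 193 ± 29.5 against 150 ± 22.1 (SD, n = 3) after longer exposure. Of 10 calmodulin and calcineurin genes, 9 lay above 0 after postnatal (5 to 9 with 1 pair left out) and 5 after longer exposure. After quantile or loess normalization these were 6 and 4, while median rescaling gave 10 and 4. After longer exposure Calm3, a calmodulin gene, had 98.2 ± 10.9 against 66.1 ± 1.34 (log2 difference 0.56 ± 0.19, limma adjusted p = 0.987). Atf1, a CREB relative, had 256 ± 7.13 against 207 ± 1.86 after postnatal exposure (0.31 ± 0.11, adjusted p = 1.00). Of 5 CDK inhibitor genes, 1 lay above 0 after postnatal and 2 after longer exposure, with medians of -0.05 and -0.165. The 1 was Cdkn1c, which had 78.7 ± 5.54 against 52.3 ± 2.89 after postnatal (0.58 ± 0.20) and 35.5 ± 13.4 against 43.5 ± 5.01 after longer exposure. Of 16 cyclins, 10 and 11 lay above 0, with medians of 0.02 and 0.06 (6 to 9 and 5 to 12 with samples left out). After quantile or loess normalization 6 and 9 cyclins lay above 0, and after median rescaling 10 and 9. The MAPK phosphatases, which switch MAP kinases off, had 5 and 3 of 9 above 0 (medians 0.0035 and -0.06). Adenylyl cyclases and cyclic AMP phosphodiesterases, which make and break down cyclic AMP, had 5 of 12 after each exposure (medians -0.03 and -0.05). The PKA anchors and inhibitors had 10 and 8 of 16, the Cdk5 activators and binding proteins 3 and 5 of 5, and transcription factors that answer to these kinases 13 and 15 of 25, with medians between 0.0057 and 0.12. With 1 sample left out, the medians of these 5 lists, from the phosphatases on, crossed 0 in both exposures. The exception was that of the transcription factors after longer exposure. After quantile or loess normalization the Cdk5 list had 2 and 3 of 5 above 0, and after median rescaling 3 and 4.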

How the data were processed

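The authors deposited 1 table per exposure with a signal per library and region: read counts adjusted with edgeR, per the file headers and the submitters' processing notes (build mm9). The aligner, peak caller and versions were not given in the sources used here. Of 19203 rows per table, 14881 had values and 4322 repeated regions with empty values. Signal was tested as log2(value + 1) with limma 3.58.1 (trend, R 4.3.3, two-sided, Benjamini-Hochberg over all regions), over regions with at least 1 in as many samples as the smaller group, each exposure on its own, after tests on simulated data. Exposures were compared with a z test of both differences. No count model was used, since values are not whole. Members, role lists and partner lists were chosen with earlier results of these data known. Named members are those of lowest unadjusted p per exposure and direction (8 each), fixed core genes, and those highest or lowest by level; Cdk5, a core gene, is not analysed here, and results for some other members are not reported here. Genes whose groups did not overlap in both exposures, those called by share class and those shown for promoter sequence were named after their values were seen. Promoter windows came from RefSeq (GRCm38.p6), which was not used for region coordinates. Alternatives covered pseudocount, filter, scaling, trend, replicate block, share class and leaving out samples. Figures used matplotlib 3.10.9.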

Additional observations from a re-analysis of the deposited data

How the results depend on the processing

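No member was called for nicotine under any alternative run in either exposure. Over all regions, the 0 calls after postnatal exposure became 1 with the replicate block, 9 with the share class as a term, 18 and 11 with the class after quantile and loess normalization (both chosen after seeing the data), and 0 to 31 when 1 averaged pair was left out (7 without nicotine pair 1-2, 31 without nicotine pair 3-4). After pre- and postnatal exposure they became 1 without the trend and 0 to 17 when 1 library was left out (17 without nicotine replicate 1), and stayed at 0 with the block. The cause was not tested, except that a left-out sample means fewer samples and a lone sample is assumed to vary like the others. In every postnatal setting that gave calls, limma took the variance wholly from the trend over all regions, not from the region itself. The members' postnatal median of 0.04 became 0.090 after rescaling to the median region, which moved all regions by 0.05, and lay between 0.03 and 0.05 with a pair left out; the other median lay between -0.01 and 0.05. Same-numbered postnatal pairs deviated in opposite directions (correlation -0.482). With 2 pairs a group, the crossed pairing, which is the share class, has the opposite sign by arithmetic. Whether the numbers mark samples handled together was therefore not tested. In the longer exposure the correlations of same-numbered libraries were -0.081 and -0.076. With the block, Prkca and Prkcb turned to 0.022 and 0.12 after longer exposure. Other small differences changed sign: after postnatal exposure Mapk3 to 0.015 and Mapk14 to -0.025 (quantile), Mapk14 to -0.023 (loess), and Map2k1, Prkca and Prkcb to 0.032, 0.021 and 0.019 (median rescaling). With 1 pair left out, postnatal differences ran from -0.33 to 0.15 for Mapk3, -0.042 to 0.17 for Mapk14, -0.11 to 0.080 for Map2k1, -0.088 to 0.24 for Prkacb, -0.16 to 0.10 for Prkca, -0.18 to 0.12 for Prkcb and -1.09 to 0.089 for Prkcsh. With 1 library left out, the longer exposure gave -0.0062 to 0.19 for Prkaca, -0.013 to 0.26 for Prkacb, -0.26 to 0.016 for Prkca and -0.16 to 0.12 for Prkcb. In all, 23 values for named genes changed sign and 836 did not. The 836 include settings that cannot move a log2 difference: the filters, the trend and, after postnatal exposure, the block and the share class. Their number is therefore no measure of stability. Depth is unknown, and 2 or 3 samples a group limit what could be called.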
